A study of Macaca mulatta with 6 samples.

Results

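ABC transporters are membrane proteins that use ATP to move lipids, sterols, drugs, heme precursors or conjugated metabolites across a membrane. Their subfamilies are lettered A to G. Members were taken as every gene whose symbol in the array's annotation was ABC, a letter from A to G and a number, on probe sets with a single symbol. This gave 35 genes on 62 probe sets, out of 14132 named genes and 52766 probe sets tested. They were 11 genes of subfamily A, 7 of B, 10 of C, 2 of D, 2 of F and 3 of G. Where a gene had several probe sets, the one brightest on average over the 6 arrays was used. ABCG1, ABCG4, ABCC9 and subfamily E were not analysed here.

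The cells were dispersed from the corpus luteum of rhesus macaques, the gland that forms from the ovulated follicle and secretes progesterone, taken on day 12 counted from the luteinizing hormone surge. Freshly plated cells, on fibronectin and without serum, were exposed for 24 h to 0.1% DMSO, the vehicle, or to 1 µM T0901317, a small molecule that activates liver X receptors (LXRs). Each condition had 3 arrays, and arrays with the same replicate number form a pair. The sources used here do not say whether a pair shares an animal. Of the 8 markers of steroid-producing luteal cells listed, 5 were measured, and all 5 lay above the reference for dim signal on every array. STAR, which delivers cholesterol for steroid synthesis, had log2 levels of 11.0, 11.5 and 10.5 with DMSO.

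LXRs are nuclear receptors that are switched on by oxidised cholesterol. Their textbook targets include ABCA1, which loads cholesterol and phospholipid onto apolipoproteins outside the cell, and ABCG5 and ABCG8, which work as a pair that exports sterols. Other members have different work. ABCB1 and ABCG2 pump drugs and foreign compounds out of cells, ABCC proteins export conjugated metabolites, mitochondrial ABCB proteins serve heme and iron-sulfur metabolism, ABCD proteins serve peroxisomes and lysosomes, and ABCF proteins act in translation and transport nothing.

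Most members had a signal above that of most control probe sets for bacterial genes. The reference for dim signal was a log2 level of 4.63, the 95th percentile of the mean levels of control probe sets for Bacillus genes. On all 6 arrays, 24 of the 35 members lay above it and 6 lay below it, and 5 crossed it. The 6 below were ABCA6, ABCA9, ABCA10, ABCA13, ABCB4 and ABCC12. The 5 that crossed were ABCA2, ABCA12, ABCC2, ABCC11 and ABCG5. For these 11 genes some or all arrays gave no more signal than the brightest controls. Of all 14132 named genes, 11738 lay above the reference on all 6 arrays, 1407 lay below it on all 6, and 987 crossed it. The share above it on all 6 arrays was thus smaller in the family (68.6%) than among named genes, a difference that was not tested. Levels of different genes come from different probes and were not ranked against each other.

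**Figure D1:**
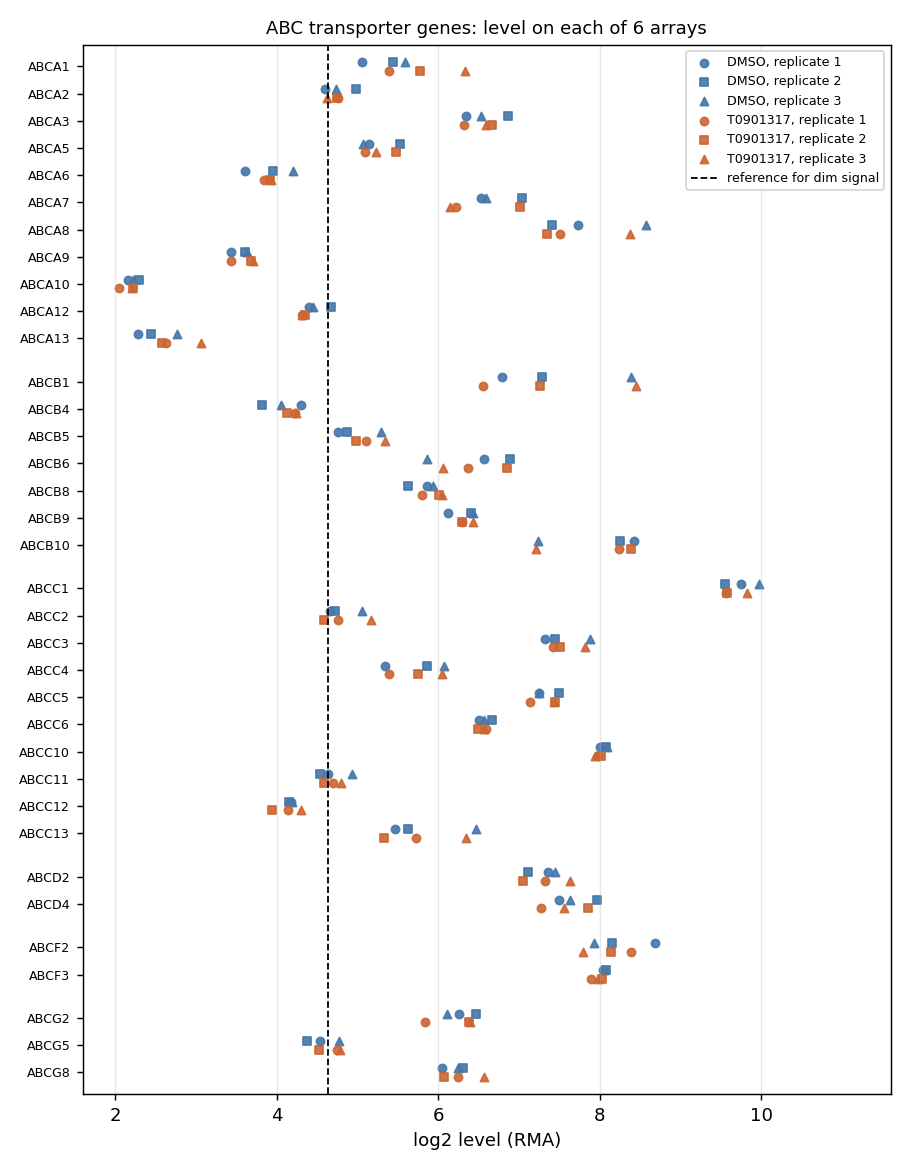
Log2 level (horizontal axis) of the 35 members (vertical axis) on each of the 6 arrays. Colours are the conditions, symbols are the replicate numbers, and the dashed line is the reference for dim signal at 4.63. For most genes the blue and orange symbols of the same shape lie close together, while for ABCB1, ABCA8 and ABCB10 the triangles of replicate 3 stand apart.

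No member passed the test for a change with T0901317. In limma's paired fit, 0 of 35 members and 0 of their 62 probe sets had an adjusted p under 0.05, while 45 of all probe sets tested (0.0853%) did. ABCA1 had the largest change of the family, 0.47 ± 0.13 on the log2 scale (SE from limma's pooled spread). The other 34 members had changes between -0.26 and 0.26. Their 95% intervals lay between -0.53 and 0.49, which is 0.694-fold to 1.41-fold. The median change of the family was -0.02, with an SD of 0.03 over the medians of the 3 pairs, and that of all named genes was -0.02.

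ABCA1 had log2 levels of 5.06, 5.44 and 5.58 with DMSO and of 5.40, 5.77 and 6.34 with T0901317 in replicates 1, 2 and 3. It was higher with T0901317 in 3 of 3 pairs, by 0.34, 0.33 and 0.75, although the groups overlapped. The mean change is 1.39-fold, with a 95% interval of 0.18 to 0.77 on the log2 scale. It did not pass over all probe sets (limma adjusted p = 0.88; unadjusted p = 0.0046). A larger change in either direction was seen in 0.495% of named genes. Over the 14 refits listed in the closing section its change ran from 0.33 to 0.54 and its limma adjusted p from 0.15 to 1.

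The largest difference of ABCA1 was that of pair 3, where the arrays also differed in the balance of 3' and 5' control signal, a measure of RNA integrity. The mean 3' minus 5' difference of the actin, GAPDH and EF1a controls changed with T0901317 by -0.59 in pair 3, by 0.18 in pair 1 and by -0.06 in pair 2. Adding this measure to the fit gave ABCA1 a change of 0.38, and without replicate 3 it had 0.33. The annotation gives this probe set, MmugDNA.4826.1.S1_at, a gene number that is not in the current RefSeq gene table, which lists ABCA1 under another number. Its identity is therefore uncertain. The gene numbers of the other 34 members were all in that table.

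The sterol pair of subfamily G gave small values. ABCG5 had 4.54, 4.38 and 4.77 with DMSO and 4.75, 4.52 and 4.79 with T0901317, close to the reference for dim signal on every array. Its change was 0.12 ± 0.13, higher in 3 of 3 pairs (limma adjusted p = 1). ABCG8 had 6.05, 6.30 and 6.25 with DMSO and 6.25, 6.07 and 6.57 with T0901317. Its change was 0.10 ± 0.14, with pair differences of 0.20, -0.23 and 0.32 (limma adjusted p = 1). Both groups overlapped for both genes. The 95% intervals, -0.16 to 0.40 for ABCG5 and -0.20 to 0.39 for ABCG8, leave room for rises of the size seen for ABCA1 in pairs 1 and 2.

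Other genes around LXR and sterol efflux did pass in the same arrays. Of 15 listed genes other than ABC transporters, 11 were measured, of which 5 rose, 0 fell and 6 did not pass. MYLIP, a ubiquitin ligase that marks lipoprotein receptors for breakdown, rose from 7.50, 8.01 and 8.03 to 9.99, 10.1 and 10.7. SREBF1, NR1H3, LPCAT3 and APOE were the other risers, and the smallest of the 5 changes was that of APOE, 0.60 ± 0.07 (limma adjusted p = 0.0087). For all 5 of these genes every pair moved upward. The sterol transporter genes NPC1 and NPC2, which carry cholesterol out of lysosomes, had changes of 0.05 and -0.09, and PLTP, a phospholipid transfer protein, had 0.02 (limma adjusted p = 1 for each). This list was chosen with earlier results of these arrays known, so its count is not independent evidence of direction.

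**Figure D2:**
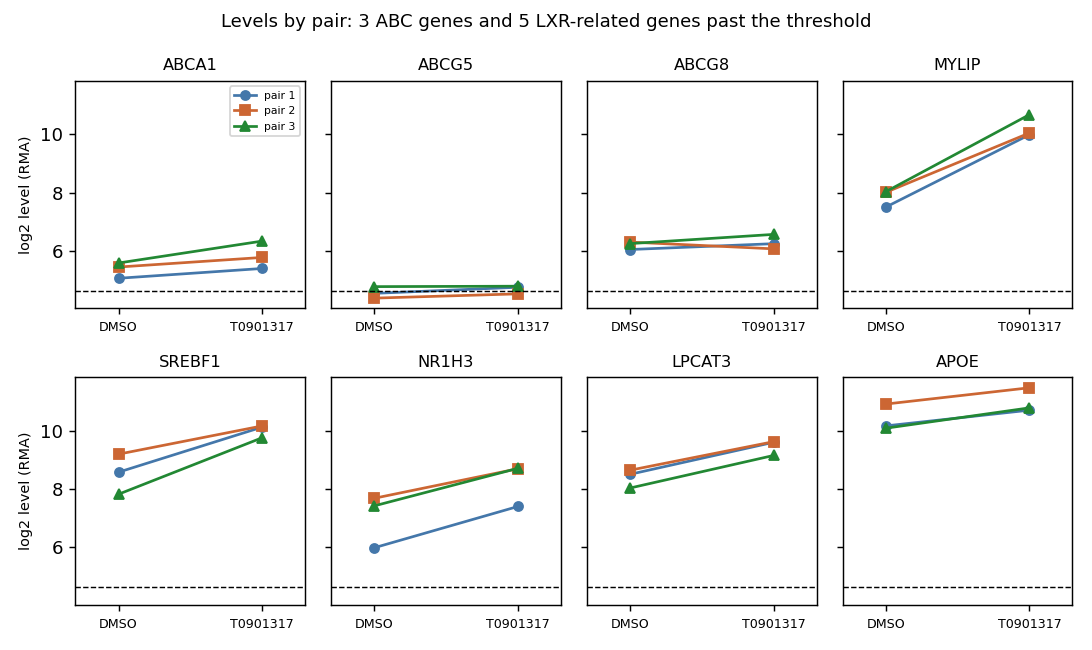
Log2 level (vertical axis) with DMSO and T0901317 (horizontal axis) of ABCA1, ABCG5 and ABCG8 and of the 5 LXR-related genes that passed the threshold. Each line is a pair, and the dashed line is the reference for dim signal. All 3 lines rise for ABCA1, by 0.34, 0.33 and 0.75, and those of ABCG5 lie near the dashed line.

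Members with the same sign in 3 of 3 pairs were 4 higher and 8 lower, which is 11.4% and 22.9% of the family. Among all named genes these shares were 9.43% and 15.8%. The 4 higher were ABCA1, ABCA13, ABCB5 and ABCG5, and the 8 lower were ABCA7, ABCA8, ABCA10, ABCA12, ABCC10, ABCD4, ABCF2 and ABCF3. At an unadjusted p under 0.05 there were 2 members higher, ABCA1 and ABCA13, and 0 lower, while 1.32% of named genes were higher and 2.41% lower. The 3 T0901317 arrays lay fully outside the range of the DMSO arrays for 2 members, ABCA12 and ABCF3, both lower, and for 1.9% of named genes. Each of these counts in the family was within a few genes of the count that the shares among named genes would give.

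**Figure D3:**
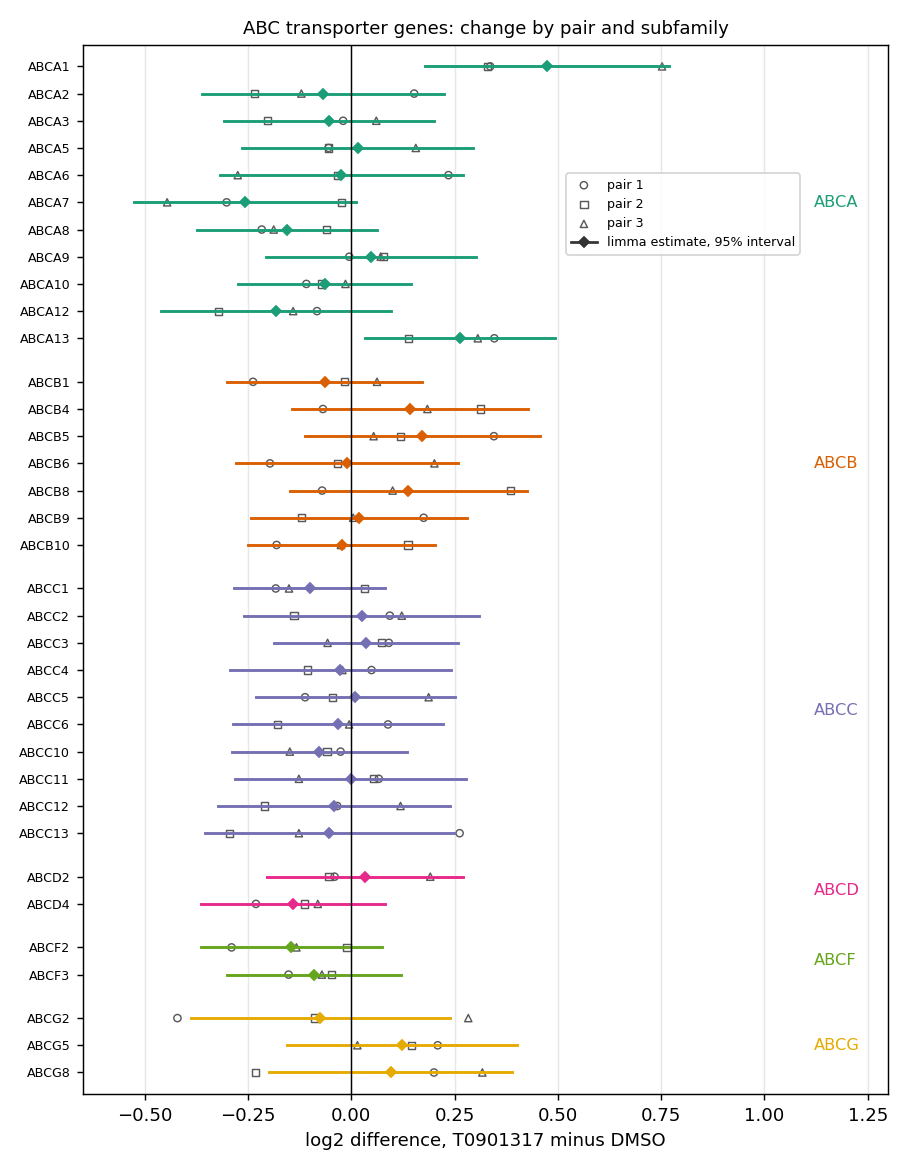
Log2 difference, T0901317 minus DMSO (horizontal axis), for each member (vertical axis), coloured by subfamily. Diamonds and bars are limma's estimate and its 95% interval, and open symbols are the 3 pairs. The intervals of ABCA1 and ABCA13 lie above 0 and the other 33 include 0.

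Subfamily A holds lipid transporters. Its 11 members had a median change of -0.05, with 4 above 0 and 7 below, and 5 lay above the reference for dim signal on all arrays. Of all 14132 named genes, 5844 had changes above 0 and 8288 below. ABCA7, a phospholipid transporter close in sequence to ABCA1, had 6.53, 7.04 and 6.59 with DMSO and 6.23, 7.02 and 6.15 with T0901317. Its change was -0.26 ± 0.12, lower in 3 of 3 pairs but by only 0.02 in pair 2, and the groups overlapped (limma adjusted p = 1; unadjusted p = 0.059). ABCA13 had a change of 0.26 ± 0.11 at levels of 2.29 to 3.07, all below the reference for dim signal, and its second probe set had 0.02. ABCA12, a lipid transporter known from skin, had -0.18 ± 0.13, with 1 of 6 arrays above that reference, and its second, dimmer probe set had 0.21. The remaining members were ABCA2, ABCA3, ABCA5, ABCA6, ABCA8, ABCA9 and ABCA10. ABCA3, the lipid carrier of lung surfactant, had mean levels of 6.58 with DMSO and 6.52 with T0901317.

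Members that neighbour each other in the genome lay on both sides of the reference for dim signal. In the RefSeq gene table ABCA8, ABCA9, ABCA6, ABCA10 and ABCA5 follow each other with no other protein-coding gene between them. ABCA8 and ABCA5 lay above the reference for dim signal on all 6 arrays, while ABCA6, ABCA9 and ABCA10 lay below it on all 6. ABCA8 had 7.73, 7.41 and 8.57 with DMSO and 7.51, 7.35 and 8.38 with T0901317, a change of -0.16 ± 0.10, lower in 3 of 3 pairs (limma adjusted p = 1). Replicate 3 was highest in both conditions, and the groups overlapped. The other 3 probe sets of ABCA8 were dimmer and had changes of 0.06 to 0.17. Further neighbours were ABCG5 with ABCG8, ABCC1 with ABCC6, and ABCC11 with ABCC12.

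Subfamily B joins drug pumps and transporters of mitochondria and lysosomes. Its 7 members had a median change of 0.02, with 4 above 0 and 3 below, and its pair medians were -0.07, 0.12 and 0.06. ABCB1, or P-glycoprotein, had 6.79, 7.28 and 8.39 with DMSO and 6.55, 7.26 and 8.45 with T0901317, a change of -0.06 ± 0.11 (limma adjusted p = 1). ABCB5, a related transporter, had 4.76, 4.87 and 5.29 with DMSO and 5.11, 4.99 and 5.35 with T0901317. Its change was 0.17 ± 0.13, and 0.20 on its second probe set, and the groups overlapped (limma adjusted p = 1 for both). ABCB4, which moves phosphatidylcholine into bile, had a mean level of 4.06 with DMSO. ABCB8 and ABCB9 had mean levels of 5.81 and 6.32 with DMSO and of 5.95 and 6.34 with T0901317. ABCB6 and ABCB10 are described with the replicates below.

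Subfamily C exports conjugates, nucleotides and signalling lipids. The changes of its 10 members lay between -0.10 and 0.04, the narrowest range among subfamilies with more than 3 members. ABCC1, which exports glutathione conjugates, had 9.75, 9.55 and 9.98 with DMSO and 9.57, 9.58 and 9.83 with T0901317. ABCC10 had 8.0, 8.08 and 8.09 with DMSO and 7.97, 8.02 and 7.94 with T0901317, a change of -0.08 ± 0.10, lower in 3 of 3 pairs (limma adjusted p = 1). Its 3 DMSO arrays lay within an SD of 0.05. ABCC4, which exports cyclic nucleotides and prostaglandins, had mean levels of 5.76 with DMSO and 5.73 with T0901317. ABCC2, ABCC3, ABCC5, ABCC6, ABCC11, ABCC12 and ABCC13 had no interval that excluded 0. A second, dimmer probe set of ABCC2, below the reference for dim signal, was lower in 3 of 3 pairs by 0.28, 0.37 and 0.15 (unadjusted p = 0.05; limma adjusted p = 1).

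Of the 17 members with more than 1 probe set, 12 had probe sets that differed in the sign of the change and 5 had the same sign on all. The 5 were ABCA9, ABCA13, ABCB5, ABCF2 and ABCG2. The 5 probe sets of ABCC3, a basolateral exporter of conjugates, ran from -0.18 to 0.07, and the 4 of ABCC13 from -0.05 to 0.14. ABCA1, ABCB1 and ABCG8 were each read by a single probe set.

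The probe sets used for the members of subfamilies D and F lay well above the reference for dim signal. ABCD4, which helps to bring vitamin B12 out of lysosomes, had 7.50, 7.97 and 7.64 with DMSO and 7.27, 7.85 and 7.56 with T0901317. Its change was -0.14 ± 0.10, lower in 3 of 3 pairs, and its second probe set had 0.12 (limma adjusted p = 1 for both). ABCD2, a peroxisomal importer of very long fatty acids, had mean levels of 7.30 and 7.33 with DMSO and T0901317. ABCF2 had 8.68, 8.15 and 7.93 with DMSO and 8.39, 8.14 and 7.79 with T0901317, a change of -0.14 ± 0.10, and its other 2 probe sets had -0.05 and -0.03. ABCF3 had 8.04, 8.08 and 8.05 with DMSO and 7.89, 8.03 and 7.98 with T0901317. Its 3 treated arrays all lay below the 3 vehicle arrays, but the change was only -0.09 ± 0.10 (limma adjusted p = 1; 95% interval -0.30 to 0.12).

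ABCG2, the drug pump of subfamily G, had 6.26, 6.46 and 6.12 with DMSO and 5.83, 6.38 and 6.40 with T0901317. Its pair differences of -0.42, -0.09 and 0.28 ran in both directions, and the change was -0.08 ± 0.14 (limma adjusted p = 1). The SD of these differences, 0.35, was the largest in the family.

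Genes that work with ABC transporters were tested one by one in the same fit and are counted by list, and none passed outside the sterol list. For heme and iron-sulfur synthesis, 11 genes were measured with 0 rising or falling and a median of -0.10. For translation there were 7 (median -0.07), for peroxisomes 4 (-0.06), for vitamin B12 4 (-0.02), for solute uptake 7 (-0.11) and for the xenobiotic and glutathione response 9 (-0.03). CYP1B1, a cytochrome of the last list, had the lowest p among those that did not pass, with a change of 0.36 ± 0.06 (limma adjusted p = 0.10). ABC proteins known by other symbols were CFTR, TAP1 and TAP2. TAP1, which feeds peptides to antigen presentation, had -0.22 ± 0.09, TAP2 had -0.12, and CFTR, below the reference for dim signal, had 0.16. The 6 measured genes of peptide loading had a median of -0.10, with 2 above 0. The lowest of them was the immunoproteasome gene PSMB8, with -0.27 ± 0.08 (limma adjusted p = 1 for TAP1 and PSMB8).

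No marker of any cell type passed in limma for a change with T0901317, though the values of some lists leaned one way. For pericytes and smooth muscle, all 4 measured markers were lower with T0901317 (median -0.24), and 6 of 7 endothelial markers were higher (median 0.22). The median level of the pericyte markers was 7.96 to 8.73 with DMSO and 7.79 to 8.34 with T0901317, and that of the endothelial markers 7.07 to 7.47 and 7.10 to 7.48. Of the endothelial markers, 1 lay below the reference for dim signal on all arrays. Among all 14132 named genes, 8288 changes lay below 0 and 5844 above. The luteal markers themselves had a median of -0.17, with 4 of 5 below 0. The medians were -0.13 for fibroblasts (4 of 4 below 0), -0.14 for T and NK cells (2 of 2), -0.10 for erythroid cells and platelets (5 of 6) and -0.05 for macrophages (5 of 6). Their part in the values of the members was not tested. In bulk RNA, fewer cells of a type and less RNA per cell cannot be told apart.

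More members passed a test for the replicate than for the treatment. In an F test of the replicate term in the same limma fit, added after the values were seen, 14 members (40%) had an adjusted p under 0.05. Of all named genes 46.2% did, so the family's share in this fit was near the background. Replicate 3 was the highest of the replicates in 9 of the 14 members and the lowest in 4. Of the 6527 named genes that passed, it was the highest in 1776 and the lowest in 3678, and the difference between these balances was not tested. Without replicate 3, 6 members (17.1%) and 24.5% of named genes passed. With each array centred on its median, 10 members (28.6%) and 44.8% of named genes did.

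**Figure D4:**
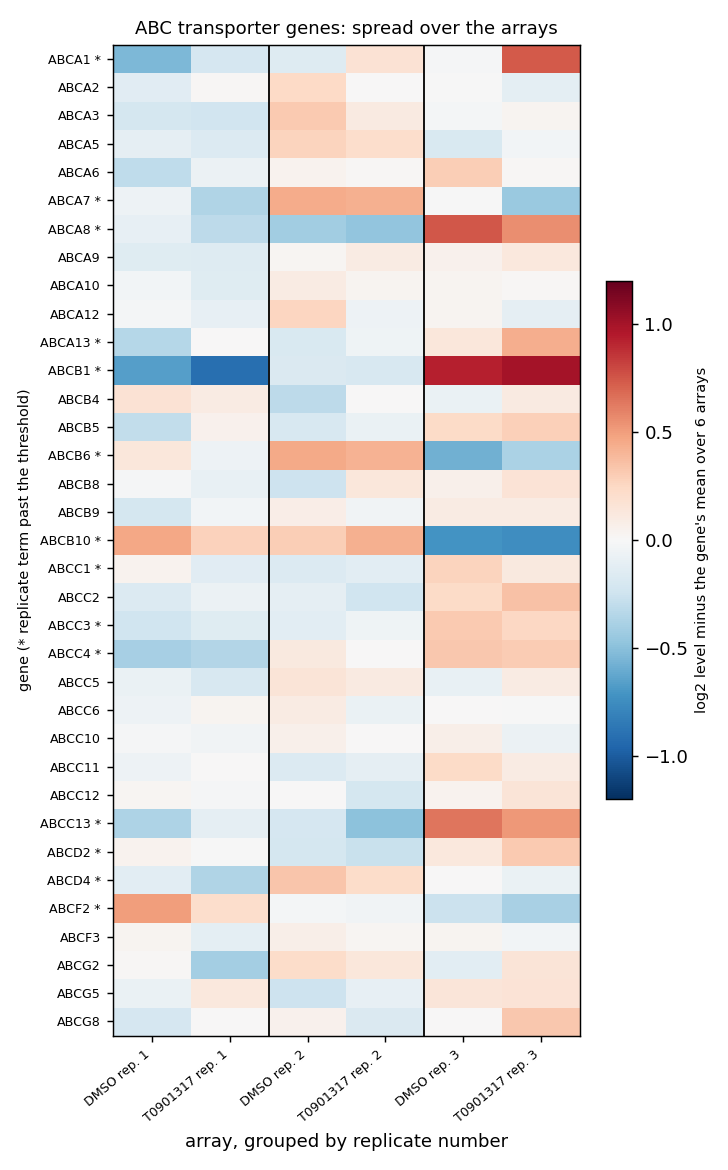
Log2 level minus the gene's own mean over the 6 arrays (colour) for each member (vertical axis) on each array (horizontal axis, grouped by replicate number). Stars mark the 14 members whose replicate term passed. ABCB1 is red in both arrays of replicate 3 and blue in both of replicate 1, and ABCB10 is blue in both arrays of replicate 3.

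ABCB1 had the widest range between replicates. Its means over both arrays were 6.67, 7.27 and 8.42 in replicates 1, 2 and 3, a 3.35-fold range (limma F test, adjusted p = 6e-06). The pair differences, -0.24, -0.02 and 0.06, were small beside this range. ABCA8 ranged over 1.10 on the log2 scale, with 8.47 in replicate 3 against 7.62 and 7.38 (adjusted p = 8.2e-05), and ABCC13 over 0.93 (adjusted p = 0.0020). Their dimmer probe sets bore this out only in part. Those of ABCA8 had ranges of 0.77, 0.50 and 0.23 (limma F test, adjusted p = 0.013, 0.12 and 0.48). Those of ABCC13 had 0.63, 0.30 and 0.13 (limma F test, adjusted p = 0.016, 0.28 and 0.70). KCNJ8, a pore subunit that pairs with ABC proteins to form potassium channels, had 6.56, 6.67 and 8.77 with DMSO. The 2 measured markers of T and NK cells, of 5 listed, had a median of 8.66, 8.55 and 10.1 with DMSO and 8.43, 8.49 and 9.94 with T0901317. With DMSO the median of the erythroid and platelet markers was also highest in replicate 3, at 5.85, 6.07 and 6.29. Other lists were not highest there. Macrophage markers had 9.20, 9.90 and 9.77, luteal markers 8.51, 7.50 and 7.88, and pericyte markers 8.73, 7.96 and 7.99.

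The 4 members that passed with replicate 3 lowest were ABCB10 and ABCB6, which belong to heme metabolism, and ABCA7 and ABCF2, which do not. For ABCA7 replicates 1 and 3 were nearly level, with means over both arrays of 6.38, 7.03 and 6.37 in replicates 1, 2 and 3. ABCB10, of the inner mitochondrial membrane, had 8.42, 8.25 and 7.24 with DMSO and 8.24, 8.39 and 7.21 with T0901317 (limma F test, adjusted p = 5.4e-05). Its second probe set also had its lowest values in replicate 3, over a range of 1.23 on the log2 scale (adjusted p = 0.00044). ABCB6, a porphyrin transporter, had 6.57, 6.89 and 5.86 with DMSO and 6.37, 6.85 and 6.06 with T0901317 (adjusted p = 0.0019). ABCB8, another mitochondrial member, did not share this pattern. Its means over both arrays were 5.83, 5.82 and 5.99 in replicates 1, 2 and 3 (limma F test, adjusted p = 0.6). Of the 11 measured heme and iron-sulfur partners, 9 were lowest in replicate 3, against 39.8% of named genes. Lowest there and past the replicate test were 8 of the 11, against 26% of named genes. The heme enzyme CPOX had 9.07, 9.13 and 7.66 with DMSO. For ALAS1, which starts heme synthesis, the values were 8.6, 8.76 and 7.91.

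Replicate 3 also had the largest 3' minus 5' difference of the controls. For actin it was 3.5 with DMSO and 2.45 with T0901317, against 1.54 to 2.03 in the other 4 arrays. With the mean of these controls as a covariate, 9 members (25.7%) passed the replicate test, as did 30.2% of named genes. ABCB1 (adjusted p = 5.3e-08), ABCB10 (0.0017) and ABCA8 (0.0076) were among them, and ABCB6 was not (adjusted p = 0.35). Without replicate 3 the limma adjusted p was 3e-04 for ABCB1, 0.26 for ABCA8, 0.043 for ABCB6 and 0.99 for ABCB10. Both of these fits have almost as many terms as arrays, so their p-values rest mainly on limma's spread pooled over probe sets. Fibroblast markers had a median of 8.74, 9.28 and 7.60 with DMSO in replicates 1, 2 and 3. Of the other marker lists, only the endothelial one was also lowest in replicate 3 with DMSO, at 7.14, 7.47 and 7.07. The part of RNA integrity or of cell make-up in these differences was not tested, and with 1 pair per replicate they cannot be told apart from the replicate itself.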

How the data were processed

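Total RNA was measured on 6 arrays. The authors deposited log2 values made with RMA, which run from 1.81 to 14.7, per the submitters' processing notes; its version and whether all arrays were processed together are not given in the sources used here. Array medians were 5.54 to 5.71. Of 52865 probe sets, 99 controls were left out. Names came from the platform annotation: 24956 probe sets had 1 symbol, 361 several and 27449 none.

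T0901317 minus DMSO was fitted with limma 3.58.1 in R 4.3.3 with the replicate number as a block, since the design text describes paired replicates, and eBayes with a trend. Two-sided p-values were adjusted by the Benjamini-Hochberg method over 52766 probe sets (threshold 0.05). Arrays of the same number deviated together from their group means (correlations 0.658, 0.813 and 0.830). An exact sign-flip permutation test over 3 pairs cannot go below p = 0.25. The labels call the replicates biological. Treatment p-values measure the spread of the pair differences of these arrays, moderated by a trend over all probe sets.

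Values on all 6 arrays were given for the 5 largest rises and falls with the same sign in 3 pairs and a mean above the dim reference (2 rises and 5 falls met this), ABCA1, ABCG5, ABCG8, ABCB1, ABCG2, and the 3 largest SDs over DMSO arrays. ABCB6, ABCC1, ABCC10 and list genes shown with their array values were added after their values were seen. Members and lists were chosen with earlier results of these data known. On data simulated for this comparison over 52766 probe sets, the fit recovered 34 of 67 changes of 0.5 (50.7%), 67 of 67 of 1 and 66 of 66 of 2 on the log2 scale. These changes were placed on probe sets drawn from all those tested, not on members. The recovered changes outnumbered the 45 probe sets that passed in the data, so the adjustment was less strict there. The shares therefore do not give the power for this family.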

Additional observations from a re-analysis of the deposited data

How the results depend on the processing

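Under each of 14 alternatives, 0 members passed in limma; 0 to 3 had an unadjusted p under 0.05. All 35 members were refitted, and 13 kept their sign under every alternative that measured them. Among the 16 whose changes the text gives as rule-named or same-signed in 3 pairs, 10 did, ABCA1 and ABCA7 among them. The reversed values of the other 6 were 0.0453 for ABCA8, 0.015 for ABCA12 and 0.044 for ABCB10 with the mean of a gene's probe sets; 0.0317 for ABCB10 and -0.0208 for ABCG8 with array weights; and 0.0186 with quantile normalization and 0.00949 with cyclic loess for ABCB10. Leaving out 1 replicate gave -0.128 to 0.0222 for ABCB1, -0.103 to 0.0556 for ABCB10, -0.255 to 0.0972 for ABCG2 and -0.0161 to 0.259 for ABCG8. The family's median was 0.00982 with the mean of a gene's probe sets, and -0.0426 to 0.0155 without 1 replicate. Without the replicate block 0 of the 5 partner genes passed, and without eBayes' trend 3 did. The replicate test passed 9 members with the 3' minus 5' covariate (30.2% of named genes) and 10 with median centring (44.8% of named genes). Without 1 replicate it passed 6 to 11 (24.5% to 42.4% of named genes). These alternatives were chosen after seeing the data. The fits with the covariate or without 1 replicate have almost as many terms as arrays, so their p-values rest mainly on limma's pooled spread. The causes were not tested. With 3 pairs the 95% intervals of members above the dim reference on all arrays, other than ABCA1, reached -0.53 and 0.46.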
